A study of Mus musculus with 2 samples.

Results

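The proteasome is the barrel-shaped protease that cuts up proteins carrying ubiquitin chains, and its subunits are encoded by the Psm genes. The genes described here are those whose symbols start with Psma, Psmb, Psmc, Psmd or Psme and a digit, without the pseudogene ending -ps. This rule found 46 of the 37172 genes in the deposited table. They were compared between organoid cells grown in type I collagen and organoid cells grown in Matrigel, a basement membrane extract. Organoids here are epithelial structures grown from small intestinal crypts of wild-type C57BL/6 mice. The Matrigel cultures received medium with EGF at 50 ng/mL, Noggin at 100 ng/mL and R-spondin1 at 400 ng/mL. The collagen cultures received the same factors plus nicotinamide (10 mM), 1% BSA and Wnt3a (100 ng/mL). Both were harvested on day 4, the collagen with collagenase at 0.5 mg/mL and the Matrigel with a recovery solution that is not an enzyme, and then dispersed with TrypLE. Cells of each culture were tagged with a hashtag carried by an EpCAM antibody, pooled, captured on beads and sequenced in 1 library.

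Matrix, medium and release differed together between the cultures, so their parts in any difference cannot be told apart. There was 1 cell suspension per culture. No test across samples was therefore possible, no p-value is given, and differences are described by their size and by intervals that cover counting error only. After a filter on detected genes and mitochondrial share, 336 collagen cells and 1599 Matrigel cells remained, with 42540314 and 285201649 counts. The median was 124619 counts per collagen cell and 179044 per Matrigel cell, so collagen cells had fewer counts each. All 2090 cells had distinct barcodes. The 5 epithelial markers summed to 6031 counts per 1000000 (CPM) in collagen and 3145 CPM in Matrigel. Of the 7 leukocyte markers with an entry, Cd68 was at 7.69 and 3.69 CPM and the other 6 were below 1 CPM in both cultures, for sums of 9.56 and 5.25 CPM. Of the 5 fibroblast markers, Vim was at 17.5 and 4.64 CPM and the other 4 were below 1 CPM, for sums of 18.3 and 5.45 CPM, and the 3 endothelial markers summed to 1.69 and 1.49 CPM. None of these markers was at 0. The part of such cells in the proteasome results was not tested.

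As background, the core particle (20S) is built of outer alpha rings, which gate the entry, and inner beta rings, which hold the catalytic sites. A regulatory particle (19S) sits on its ends, where ATPase subunits unfold the substrate, receptors such as Psmd4 bind ubiquitin and the lid removes it. Interferon-stimulated cells make other catalytic subunits, Psmb8, Psmb9 and Psmb10, which take the place of Psmb5, Psmb6 and Psmb7 in new cores. The resulting immunoproteasome produces many of the peptides shown on class I molecules, and the PA28 activator encoded by Psme1 and Psme2 is induced with it. In the intestinal epithelium, where cells divide and turn over quickly, the standard form is made in every cell.

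Most proteasome genes had similar summed levels in both cultures. Levels are CPM of the counts summed over a culture's cells, and a ratio is log2 of collagen CPM over Matrigel CPM after 1 was added to both, so ratios of weakly expressed genes come out too small. Levels are compared between cultures within a gene, and not between genes, since they are not per length. The interval of a ratio joins opposite ends of the cultures' 95% Poisson intervals. It is thus wider than a 95% interval of the ratio itself. The median log2 ratio over the 46 genes was -0.13. Over the 10593 genes reaching 5 CPM in either culture the median was -0.02, with quartiles at -0.43 and 0.41. Of the 46 genes, 16 (34.8%) had a ratio above 0, where 48.8% of the 10593 genes had one. Levels at least 25% higher in collagen were measured for 2 members, Psmd10 and Psme4, against 29.3% of all measured genes. Levels at least 20% lower, the same ratio in the other direction, were measured for 10 members (21.7%), against 30.3%. At 2-fold, no member was higher in collagen, against 8.21% of all measured genes. The 2 members at least 2-fold lower were Psmb9 and Psmc3ip, against 8.91%. The other 34 members lay inside the limits of 25% higher and 20% lower. The 5 CPM minimum was reached by 42 members, and not by Psmb8, Psmb11, Psma8 or Psme2b. Psmb9 and Psmc3ip reached it only in Matrigel, where they were higher, so their passing is no support for their direction.

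**Figure D1:**
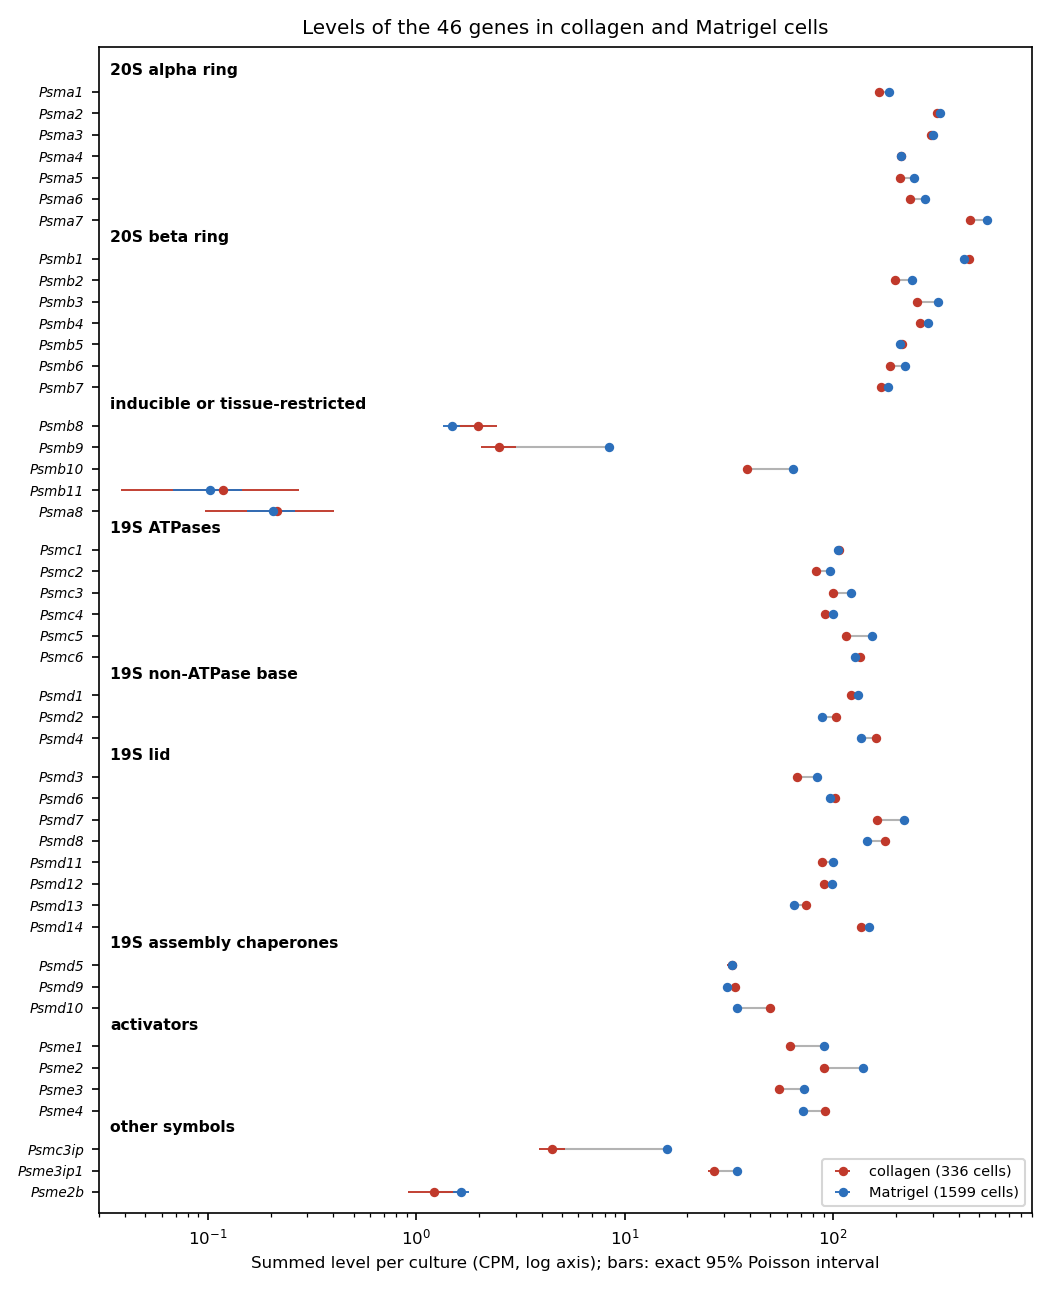
Summed level of each of the 46 genes in CPM, on a log axis, in collagen (red) and Matrigel (blue), grouped by role. Horizontal bars are exact 95% Poisson intervals of the summed counts. The points of the standard subunits nearly coincide, and those of Psmb9 (2.50 and 8.36 CPM) and Psmc3ip (4.49 and 15.9 CPM) stand well apart.

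The 14 constitutive core genes were slightly lower in collagen. Their summed level was 3617 CPM in collagen and 3970 CPM in Matrigel. In the alpha ring, which forms the gate of the core, the median log2 ratio over 7 genes was -0.16. Psma7 had the lowest ratio of the ring, with 455 CPM in collagen and 546 CPM in Matrigel (log2 ratio -0.26, interval -0.29 to -0.23). Psma4 had the highest, with 212 CPM in both (0.00). In the beta ring the median over 7 genes was -0.13. Psmb3, a structural subunit without a catalytic site, had the lowest ratio at 252 against 317 CPM (-0.33, interval -0.37 to -0.29) and was the only core gene past these limits. Psmb1, also structural, had the highest at 450 against 423 CPM (0.09). The 3 genes of the catalytic sites were close in both cultures: Psmb5 (chymotrypsin-like activity) at 215 and 210 CPM, Psmb6 (caspase-like activity) at 187 and 222 CPM, and Psmb7 (trypsin-like activity) at 171 and 184 CPM. Their log2 ratios were 0.03, -0.25 and -0.11.

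The core genes were also detected in nearly every cell of at least 77972 counts. For this, every cell was thinned at random to the same 77972 counts, and the 72 collagen and 122 Matrigel cells with fewer were set aside. All 14 genes then had a count in 254 of 264 collagen cells, or 96.2% (exact interval 93.1% to 98.2%). In Matrigel they had one in 98.5% of 1477 cells (97.8% to 99.1%). Over all kept cells, without thinning, Psma1 had a count in 93.5% of collagen and 97.7% of Matrigel cells. The summed core level of single cells ran from 426 over a median of 3436 to 6284 CPM in collagen. In Matrigel it ran from 321 over a median of 3922 to 5867 CPM. The range of collagen cells thus covered nearly all of that of Matrigel cells, and their 10th percentile was lower, at 1910 against 2818 CPM.

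Among the 17 genes of the regulatory particle, higher and lower members stood side by side. Their sum was 1915 CPM in collagen and 2015 CPM in Matrigel. Of the 17, 7 (41.2%) had a ratio above 0, against 48.8% of all measured genes. For the 6 ATPases, which form the ring that unfolds substrates, the median log2 ratio was -0.17. It ran from -0.42 for Psmc5 (115 against 153 CPM) to 0.09 for Psmc6 (135 against 127 CPM). In the non-ATPase base, the scaffold subunit Psmd2 was at 104 against 88.0 CPM (0.24) and the ubiquitin receptor Psmd4 at 160 against 136 CPM (0.23). The other scaffold subunit, Psmd1, was at 122 against 132 CPM (-0.11). In the lid, Psmd7, the partner of the deubiquitinase Psmd14, had the lowest ratio at 162 against 218 CPM (-0.43, interval -0.47 to -0.38). Psmd8 had the highest at 178 against 146 CPM (0.29, interval 0.24 to 0.33), and Psmd14 itself was at 136 against 149 CPM (-0.13). Over the 31 core and regulatory genes together the median was -0.12, and 28 lay inside the limits of 25% higher and 20% lower, all but Psmb3, Psmc5 and Psmd7, which were lower in collagen. In thinned cells, all 17 regulatory genes had a count in 56.4% of the collagen cells (interval 50.2% to 62.5%). In Matrigel the share was 78.5% (76.4% to 80.6%).

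The chaperones that assemble the base did not move alike. Psmd10 (gankyrin) was higher in collagen, at 49.7 against 34.7 CPM (0.51, interval 0.42 to 0.60), and had the highest log2 ratio of the 46 genes. Psmd10 had a count in 82.6% of thinned collagen cells (interval 77.5% to 87.0%) and in fewer thinned Matrigel cells (72.7% to 77.2%). Psmd5 was at 32.6 and 32.7 CPM (0.00 after rounding) and Psmd9 had a ratio of 0.12.

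Of the inducible catalytic subunits, Psmb9 and Psmb10 were lower in collagen, by larger log2 ratios than any standard subunit. Psmb10 was at 38.7 CPM in collagen (interval 36.8 to 40.6) and 64.2 CPM in Matrigel (63.3 to 65.2), a log2 ratio of -0.72. Psmb9 was at 2.50 CPM in collagen (2.04 to 3.01) and 8.36 CPM in Matrigel (8.03 to 8.70), a log2 ratio of -1.42 (-1.67 to -1.17). Psmb8 was at 1.97 CPM in collagen (1.58 to 2.44) and 1.48 CPM in Matrigel (1.34 to 1.63), a ratio of 0.26. Its interval, -0.03 to 0.56, includes 0 but is wider than a 95% interval of the ratio, so it does not settle the order. Psmb8 was thus at a low level in both cultures. The thymus subunit Psmb11 was at 0.12 and 0.10 CPM and the testis subunit Psma8 at 0.21 and 0.20 CPM, levels that stand for genes with little place in this tissue.

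The windows before the RefSeq start sites of these genes are shown because the inducible members differ in the short motifs these windows hold. For Psmb8 and Psmb9, among others, these starts differ from another gene annotation, so the motifs found depend on the start used. Sequences are RefSeq windows of build GRCm38.p6 from a reference table, 5′ to 3′ on the gene's strand, and capitals mark a motif match. Psmb8 lies on the plus strand (chr17:34198088-34198117) and is shown around its match to TTCNNNGAA, the letters of a gamma-activated site, known from interferon-induced genes. Psmb9 lies on the minus strand (chr17:34187331-34187360) and is shown around its match to CCAAT, which reads ATTGG on this strand. Psmb10 (minus strand, chr8:105938445-105938642) is shown for the 198 upstream bases outside annotated exons, which hold none of the 4 motifs searched.
Psmb8: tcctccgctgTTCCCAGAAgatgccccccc
Psmb9: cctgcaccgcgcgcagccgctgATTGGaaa
Psmb10: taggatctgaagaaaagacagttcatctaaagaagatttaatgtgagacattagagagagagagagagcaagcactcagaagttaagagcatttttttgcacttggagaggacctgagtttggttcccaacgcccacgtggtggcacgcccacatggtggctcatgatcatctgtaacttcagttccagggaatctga

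In all, 39 of the 46 members had a window in the table, and the 250 bases before each start were searched on both strands. The TTCNNNGAA letters stood in 7.02% of the 32851 windows of all genes and, among the members, in Psmb8 alone. The GAAANNGAA letters of an interferon response element stood in 7.13% of all windows and in Psmb3, Psmd4 and Psmd9. CCAAT stood in 33.8% of all windows and in 16 members. Psmb9 starts 226 bases from Tap1, the peptide transporter gene on the opposite strand, and the upstream windows of both share 225 of 250 bases. Across that shared stretch the genes had different ratios, -1.42 for Psmb9 and 0.12 for Tap1 (3.37 against 3.01 CPM, interval -0.14 to 0.38). Tap1 stayed below 5 CPM in both cultures, and 10 cells held 44.7% of its 143 collagen counts. A match is a description of letters and not a bound site.

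Set against their constitutive partners, the inducible genes took the following shares of counts. Psmb10 held 18.5% of the counts of Psmb10 and Psmb7 in collagen (exact interval 17.7% to 19.3%) and 25.9% in Matrigel (25.5% to 26.2%). Psmb9 held 1.32% of the counts of Psmb9 and Psmb6 in collagen (1.08% to 1.59%) and 3.64% in Matrigel (3.49% to 3.78%). Psmb8 held 0.910% of the counts of Psmb8 and Psmb5 in collagen (0.727% to 1.13%) and 0.699% in Matrigel (0.634% to 0.768%). These shares compare a pair between cultures and are not shares of molecules or protein, since neither gene length nor protein was taken into account. For 2 of the 3 pairs the inducible share was lower in collagen. The third pair rests on 84 Psmb8 counts in collagen, and its order turned when fractional values were left out, to 8.51% in collagen and 13.1% in Matrigel, since most values of Psmb5 are fractional.

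The number of cells behind these levels differed. After thinning, Psmb10 had a count in 67.8% of collagen cells (61.8% to 73.4%) and 90.7% of Matrigel cells (89.1% to 92.2%). Unthinned, it had one in 220 of 336 and 1458 of 1599 cells. Psmb9 had a count in 8.71% of thinned collagen cells (5.60% to 12.8%) and 26.5% of thinned Matrigel cells (24.3% to 28.9%), and unthinned in 32 and 537 cells. Psmb8 had one in 5.30% (2.93% to 8.74%) and 6.23% (5.05% to 7.58%), intervals that overlap and an order opposite to that of its CPM, so no order is read. The thinned shares of Psmb11 were 0.758% and 0.271% and those of Psma8 1.89% and 0.609%, below those of Psmb9 in both cultures.

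Few cells carried much of the Psmb8 and Psmb9 counts in collagen. Psmb8 had its 84 counts in 18 of 336 cells, and the 10 cells with the most held 78.6% of them. Without the 10 top cells of each culture the log2 ratio of Psmb8 was -0.59 in place of 0.26, so its direction rests on those cells. For Psmb9 the 10 top cells held 65.0% of 106 counts in collagen and 9.14% of 2384 counts in Matrigel, and without them the log2 ratio was -2.18. For Psmb10 the 10 top cells held 13.7% of the collagen counts and 2.92% of the Matrigel counts.

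**Figure D2:**
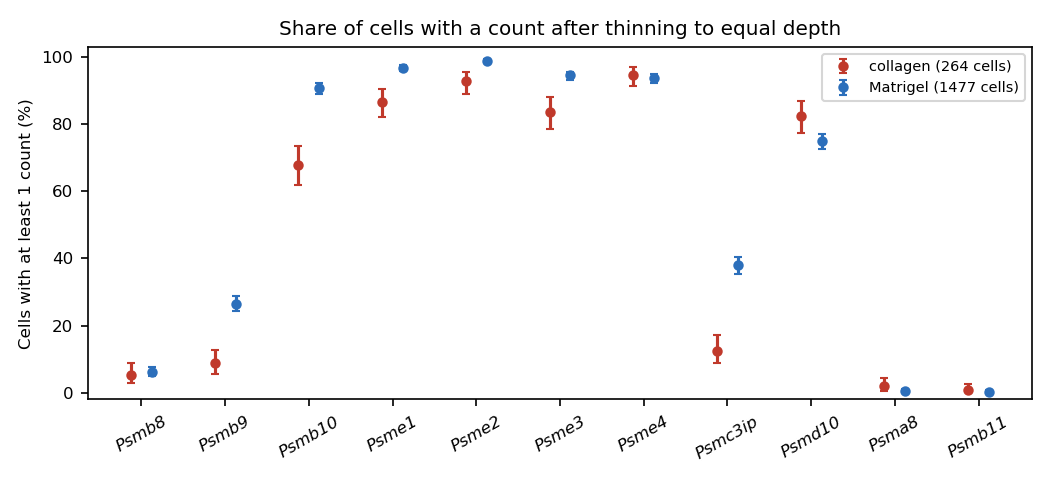
Share of thinned cells with at least 1 count, in percent, in collagen (264 cells, red) and Matrigel (1477 cells, blue), with exact 95% Clopper-Pearson intervals as bars. Psmb9 stands at 8.71% and 26.5% and Psmb10 at 67.8% and 90.7%, and the intervals of Psmb8 overlap.

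Of the 4 activator genes, 3 were lower in collagen and 1 was higher. Psme1 and Psme2 encode the PA28 alpha and beta chains, the cap that pairs with the immunoproteasome. Psme1 was at 62.4 CPM in collagen and 89.98 CPM in Matrigel (-0.52, interval -0.59 to -0.45). Psme2 was at 90.7 and 139 CPM (-0.61, interval -0.67 to -0.55). Together they summed to 153 and 229 CPM, and both were lower by nearly the same ratio. Psme3, the nuclear PA28 gamma chain, was at 54.9 and 72.4 CPM (-0.39, interval -0.47 to -0.32). Psme4, the large activator PA200, went the other way at 91.2 and 71.5 CPM (0.35, interval 0.28 to 0.41). After thinning, Psme1 had a count in 86.7% of collagen and 96.8% of Matrigel cells, and Psme4 in 94.7% and 93.6%.

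Psme1 and Psme2 lie near each other on chromosome 14 and are shown because both were lower in collagen by a like ratio. The Psme1 stretch is on the plus strand (chr14:55578249-55578359, 111 bases) and the Psme2 stretch on the minus strand (chr14:55591114-55591351, 238 bases), each the longest run outside annotated exons in its window. Neither full window of 250 bases held any of the 4 motifs searched, which says only that those letters are not in this window.
Psme1: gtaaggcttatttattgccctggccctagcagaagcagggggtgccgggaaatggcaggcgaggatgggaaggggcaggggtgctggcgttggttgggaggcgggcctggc
Psme2: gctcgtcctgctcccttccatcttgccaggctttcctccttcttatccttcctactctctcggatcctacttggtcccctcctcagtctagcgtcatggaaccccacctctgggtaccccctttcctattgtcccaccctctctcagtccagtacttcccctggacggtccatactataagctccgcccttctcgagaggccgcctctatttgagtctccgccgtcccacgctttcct

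The rule also caught 3 genes that are no standard subunit. Psmc3ip, a partner of Psmc3 known from meiotic recombination, had the lowest log2 ratio of the 46 genes. It was at 4.49 CPM in collagen (interval 3.88 to 5.17) and 15.9 CPM in Matrigel (15.5 to 16.4), a ratio of -1.62. It had a count in 12.5% of thinned collagen cells (8.76% to 17.1%) and 37.9% of thinned Matrigel cells (35.4% to 40.4%). In collagen the 10 top cells held 54.5% of its 191 counts, and without the 10 top cells of each culture its ratio was -2.34. Psme3ip1, named for binding PA28 gamma, was at 26.7 and 34.5 CPM (-0.36). Psme2b, a near copy of Psme2, was at 1.22 and 1.64 CPM (-0.25).

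**Figure D3:**
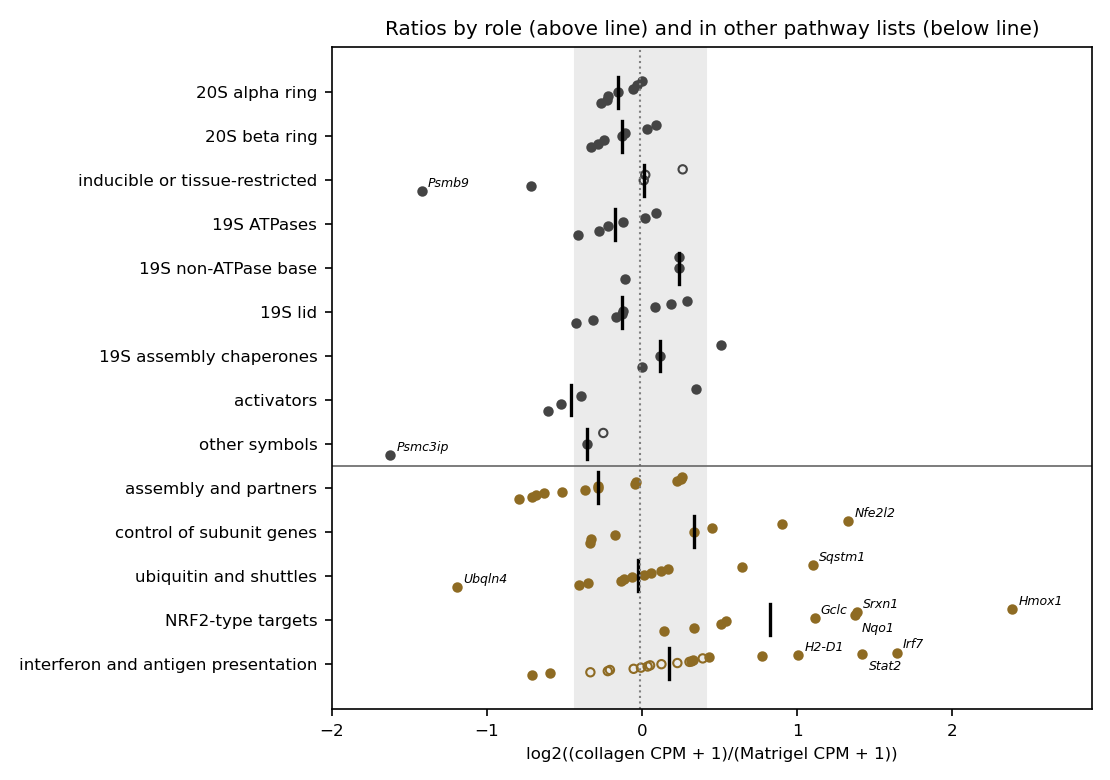
Log2 ratio of collagen over Matrigel for each gene, by role for the 46 members (above the line) and by list for 60 other genes of the pathway (below it); points are genes, open points stayed below 5 CPM in both cultures, and black bars are medians of a row. The shaded band spans the quartiles (-0.43 to 0.41) and the dotted line the median (-0.02) of all 10593 measured genes; the standard subunits lie within the band, and 6 of the 8 NRF2-type targets (median 0.82) lie to the right of it.

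In 7 members over 50% of the non-zero values were fractional, as when a read is split among near-identical copies: Psma2, Psma3, Psma4, Psmb5, Psmd1, Psmd13 and Psme2b. For Psme2 the fractional share was 26.6%. Their values are uncertain for that reason. The 7 were all inside those limits, at -0.06, -0.03, 0.00, 0.03, -0.11, 0.19 and -0.25. With only whole-number values counted, Psmb5 was at 0.97, Psmd1 at 0.98 and Psmd13 at 2.37. The other 25 standard subunits had a median of -0.16. The 5 symbols with the ending -ps that the rule left out were each at no more than 1.52 CPM. Of the genes outside the rule named below, Psmg3 (59.2%), Adrm1 (71.6%), Vcp (88.2%) and Tapbp (56.9%) also passed 50%. Their values are uncertain in the same way.

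Genes outside the rule that assemble the core were lower in collagen. Psmg1 to Psmg4 encode the chaperones that pair up the alpha ring, and all 4 were at least 20% lower, as were 30.3% of all measured genes. Psmg1 was at 37.9 against 62.6 CPM (-0.71), Psmg2 at 31.2 against 54.9 CPM (-0.79), Psmg3 at 10.6 against 17.6 CPM (-0.68) and Psmg4 at 43.3 against 67.6 CPM (-0.63). The maturation factor Pomp, which acts with them on the growing core, was at 226 and 232 CPM (-0.04). Across the 13 assembly factors and partner proteins with an entry, 6 were at least 20% lower, 1 of them the deubiquitinase Uchl5 at 72.8 against 105 CPM (-0.52), none was at least 25% higher, and the median was -0.29. The subunits Sem1 and Adrm1, whose symbols the rule does not catch, were counted among these.

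Of 7 genes that control the subunit genes, 4 were higher and 3 lower in collagen, against 48.8% higher among all measured genes. Nfe2l1 encodes NRF1, the factor that raises proteasome gene transcription when proteasome activity is short, and it was at 38.2 against 27.8 CPM (0.45, interval 0.35 to 0.55). Ngly1, the enzyme that removes sugar chains from that factor, was at 31.8 against 16.5 CPM (0.90), and Ddi2, the protease that cuts it, was at 51.0 against 64.5 CPM (-0.33). Nfe2l2 encodes NRF2, the factor of the oxidative stress response, and was 2.51-fold higher at 362 against 144 CPM (1.33, interval 1.29 to 1.37). Its inhibitor Keap1 was at 97.4 against 77.1 CPM (0.33), Bach1, which competes with NRF2 for DNA sites, at 39.0 against 49.2 CPM (-0.33), and the segregase Vcp at 176 against 199 CPM (-0.17). The median over the 7 genes was 0.33. At least 25% higher were 4 genes, against 29.3% of all measured genes, and at least 20% lower were 2 (28.6%), against 30.3%.

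Genes known as NRF2 targets outside the proteasome were higher too. All 8 had a ratio above 0, with a median of 0.82, and 7 were at least 25% higher, against 29.3% of all measured genes, and 4 passed 2-fold, against 8.21%. Hmox1, which breaks down heme, was at 26.1 against 4.17 CPM (2.39). Srxn1, which repairs oxidised peroxiredoxin, was at 48.7 against 18.0 CPM (1.39), and the quinone reductase Nqo1 was at 58.5 against 22.0 CPM (1.37). Gclc, the enzyme of the first step of glutathione synthesis, was at 116 against 52.9 CPM (1.11). The median of the 31 standard proteasome subunits was -0.12, and 10 of them (32.3%) had a ratio above 0, against 48.8% of all measured genes. Any part of NRF2 in the levels of either set was not tested.

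The upstream windows of 5 members held TGACNNNGC, the core letters of the antioxidant response element that NRF2 and NRF1 bind: Psmb5, Psmb6, Psmc6, Psmd9 and Psmd12. They are shown because NRF-type factors are the known regulators of this family, in windows of 30 bases. These are Psmb5 on the minus strand (chr14:54618023-54618052), Psmb6 (chr11:70525327-70525356), Psmc6 (chr14:45329587-45329616), Psmd9 (chr5:123228149-123228178) and Psmd12 (chr11:107479278-107479307), the last 4 on the plus strand. Capitals mark the match, which in Psmc6 and Psmd12 reads on the opposite strand.
Psmb5: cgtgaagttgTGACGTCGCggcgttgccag
Psmb6: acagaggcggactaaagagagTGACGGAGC
Psmc6: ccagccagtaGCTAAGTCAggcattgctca
Psmd9: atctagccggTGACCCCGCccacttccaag
Psmd12: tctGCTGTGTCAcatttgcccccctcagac

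The same letters stood in 10.2% of all windows, so 5 of 39 members is near that share. The log2 ratios of these 5 genes were 0.03, -0.25, 0.09, 0.12 and -0.12 in the order shown. None of the 12 members past the limits of 25% higher or 20% lower had these letters, among those with a window. At a share of 10.2% in all windows a set this small can lack them, so nothing is read from it.

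Ubiquitin genes and the proteins that carry substrates to the proteasome had a median log2 ratio of -0.03 over 12 genes. The 2 receptors of the autophagy route were higher in collagen, Sqstm1 (p62) at 156 against 72.2 CPM (1.10) and Nbr1 at 87.6 against 55.7 CPM (0.64). The shuttle factors Ubqln4 and Rad23b were lower, at 10.1 against 24.5 CPM (-1.20) and 135 against 179 CPM (-0.41).

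Genes of interferon signalling and antigen presentation did not, as a set, share the lower levels of Psmb9, Psmb10, Psme1 and Psme2. Over the 20 genes of that list the median was 0.18, and over the 9 that reached 5 CPM it was 0.43. A ratio above 0 was measured for 13 of the 20 (65%), against 48.8% of all measured genes. At least 25% higher were 7 (35%), against 29.3%, and at least 20% lower were 3 (15%), against 30.3%. The shares of all measured genes are of genes reaching 5 CPM, so the sets are unlike, as ratios of weaker genes come out too small. Class I genes were higher in collagen, with H2-D1 at 298 against 148 CPM (1.00) and B2m, the light chain, at 530 against 421 CPM (0.33). Tapbp, which loads peptides, was at 31.9 against 18.3 CPM (0.77), while Erap1, which trims them, was at 19.4 against 32.4 CPM (-0.71). Of the factors, Stat2 was at 13.8 against 4.54 CPM (1.42) and Irf1 at 17.0 against 12.3 CPM (0.43). Nlrc5, the class I transactivator, was at 0.17 and 0.37 CPM. Over all 60 genes of the 5 lists, 9 were higher and 1 was lower in collagen by 2-fold or more, the background shares being 8.21% and 8.91%.

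Within each culture, thinned cells were ranked by marker lists, and the 25% ranked lowest (bottom group) were set beside the 25% ranked highest (top group), with 66 collagen or 369 Matrigel cells in each. Cells tied with the last one taken were all taken, so some groups are larger. Such a group is a range of a score and not a cell type. Values are given for the bottom group first. Ranked by 14 S phase genes, the core genes went from 3317 to 4139 CPM in collagen and from 3742 to 4046 CPM in Matrigel. Psmg1 to Psmg4 summed to 96.0 and 175 CPM in collagen and to 164 and 223 CPM in Matrigel. Psmc3ip was at 1.33 and 11.7 CPM in collagen and at 2.95 and 32.6 CPM in Matrigel. All 3 were thus higher in the cells with more S phase transcripts, in both cultures. Depth moved with that ranking, with median counts per cell of 126193 and 155976 in collagen and 160353 and 209868 in Matrigel, and its part was not tested. Within 10% of the interquartile range of the score from the upper limit lay 19 collagen and 127 Matrigel cells. With cells ranked by counts per cell alone, Psmg1 to Psmg4 also rose, from 99.8 to 150 CPM in collagen and from 188 to 213 CPM in Matrigel. Psmc3ip rose in that ranking too, from 1.96 to 8.30 CPM in collagen and from 9.83 to 21.2 CPM in Matrigel.

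Ranked by 8 fetal and regenerative genes, the inducible members were lower in the top group of collagen cells. Psmb10 was at 47.2 CPM in the bottom and 26.3 CPM in the top group, Psmb9 at 5.41 and 1.43 CPM, and Psme1 with Psme2 at 172 and 136 CPM. The core genes went the other way, from 3372 to 3956 CPM. Depth was higher in that top group, with medians of 126312 and 140796 counts per cell, and its part was not tested. In Matrigel, 1028 of 1477 cells had no count of any of these 8 genes and form the bottom group, and the other 449 form the top group, with median depths of 185849 and 183604 counts. Psmb10 was at 66.0 and 60.3 CPM there, Psmb9 at 8.94 and 7.49 CPM, and the core genes at 4022 and 3960 CPM. Ranked by 7 crypt stem genes, Psmb10 was at 32.7 and 54.5 CPM in collagen (median depths 133124 and 141865) and at 68.6 and 64.8 CPM in Matrigel (198152 and 165982). Ranked by 12 interferon genes, Psmb9 was at 1.57 and 3.70 CPM in collagen (99 and 68 cells, median depths 137176 and 132561) and at 7.74 and 8.49 CPM in Matrigel (419 and 420 cells, 179984 and 184370). Psmb10 was at 37.6 and 37.5 CPM and at 63.0 and 66.2 CPM in these groups. Ranked by counts per cell alone, the core genes were at 3325 and 3924 CPM in collagen and at 3689 and 4224 CPM in Matrigel. In Matrigel Psmb10 was at 57.2 and 68.0 CPM and Psmb9 at 6.79 and 10.1 CPM. In collagen both were lower in the top group, Psmb10 at 37.1 and 35.1 CPM and Psmb9 at 4.08 and 1.99 CPM. The Psmb9 values in collagen rest on 106 counts in all of that culture.

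Across the 7 rankings, which include 1 by counts per cell, the top and bottom groups of collagen stayed below those of Matrigel in Psmb9, Psmb10, or Psme1 with Psme2. The highest collagen group of Psmb10 was at 54.5 CPM and the lowest Matrigel group at 57.2 CPM. For Psmb9 these were 5.41 and 6.63 CPM, and for Psme1 with Psme2 172 and 213 CPM. No intervals were made for these groups, so the small gaps of Psmb9 and Psmb10 may lie within counting error. The rankings regroup the same cells and are not separate support. The groups' levels of the core genes, of Psmg1 to Psmg4 and of Psmc3ip overlapped between the cultures.

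**Figure D4:**
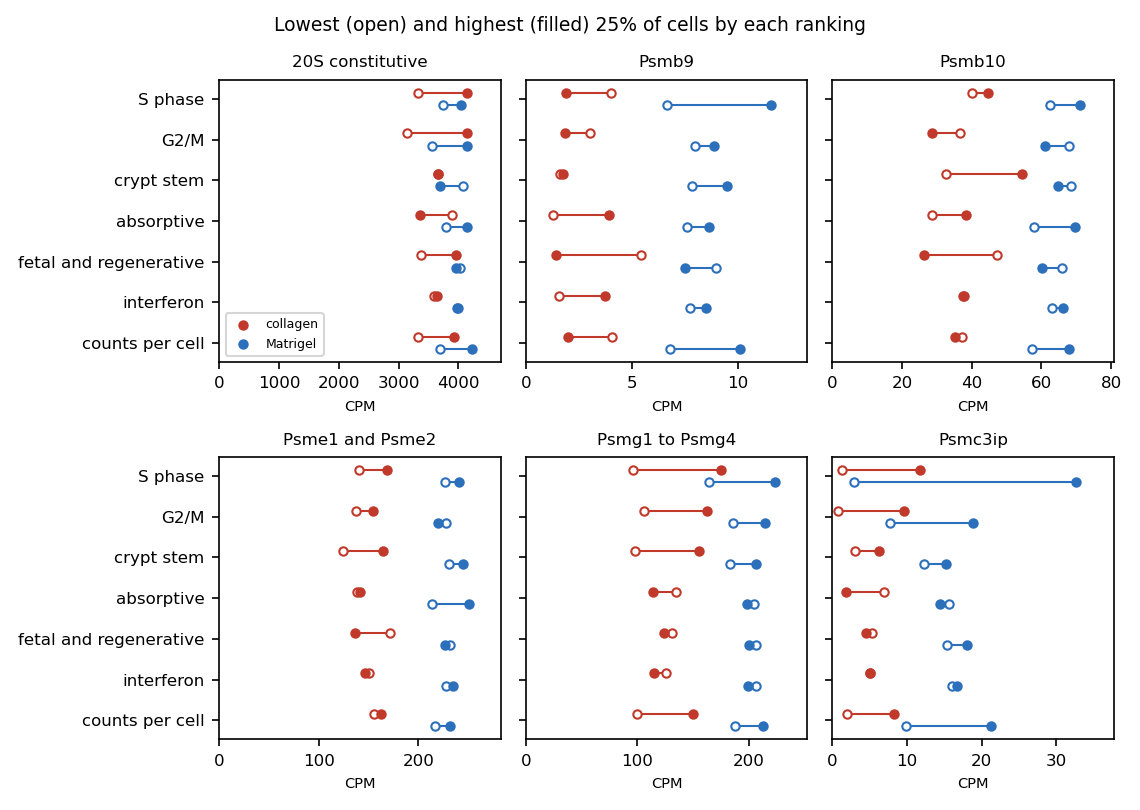
Summed CPM of 6 proteasome readouts in the lowest (open) and highest (filled) 25% of collagen (red) and Matrigel (blue) cells, tied cells included, for rankings by 6 marker lists and by counts per cell. The red and blue points of Psmb9, Psmb10, and Psme1 with Psme2 do not overlap, and those of the core, Psmg1 to Psmg4 and Psmc3ip do. Points are shown without intervals, and the rankings regroup the same cells.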

How the data were processed

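Per the labels, cells were captured with BD Rhapsody, and the cDNA and hashtag libraries were amplified by TAS-Seq. Per the submitters' processing notes, the tools named are STARsolo 2.7.10a, cutadapt 4.1 and R 4.2.1, and the build is GRCm39. The authors deposited expected counts per gene and cell, some of them fractional, without scaling, and whole-number hashtag counts per cell. The treatment of read copies was not given in the sources used here, and counting intervals are too narrow if copies were counted. For intervals, sums were rounded to whole counts.

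Cell names in the deposited table set the culture, A952 for collagen and A953 for Matrigel. The 139 cells named as doublets were left out, and no doublet caller was run. The alternatives by hashtag share did not leave them out. At a share of 60% they made up 49 of 384 collagen and 54 of 1653 Matrigel cells. At 95% they made up 5 of 324 and 0 of 1536. A filter (500 genes or more, mitochondrial share of 30% or less) removed 0 collagen and 16 Matrigel cells. Counts were summed per culture and scaled to 1000000. Ratios used a pseudocount of 1 CPM. Calculations used scipy 1.17.1 in Python 3.11.15 and were tested on simulated data. Thinning was without replacement, to percentile 10 of counts per cell. The depth per cell limits genes of a few CPM.

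The members and lists were chosen with earlier results of these data known. Named in the text were the inducible and tissue-restricted subunits with their partners, Psme1 to Psme4, members at least 2-fold apart, the extremes of each role, the genes that encode no subunit, up to 4 genes per list reaching 10 CPM with the largest absolute ratios, and Nfe2l1, Nfe2l2, Irf1, Nlrc5, Pomp, Tap1 and B2m. A gene that this rule names is not reported here. The other genes named, among them Psmd4, Psmd5, Psmd9, Psmd14, Keap1, Bach1, Vcp and Uchl5, were chosen after their values were seen. Paaf1 and Tyrobp were without an entry and not analysed here. Alternatives varied the cell filter, depth, scaling, pseudocount, minimum level, hashtag share and fractional values. Leaving out the 10 cells with the most counts of a gene was chosen after seeing the data.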

Additional observations from a re-analysis of the deposited data

Results flagged for a closer look

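The 139 cells named as doublets stood outside the main comparison, and 137 of them passed the cell filter. The summed level of the 31 standard 26S subunits in these cells was 5736 CPM, a signal in cells that the main comparison did not use. It lay between the 5532 CPM of collagen cells and the 5985 CPM of Matrigel cells.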

How the results depend on the processing

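No paired analysis was possible because each culture was 1 cell suspension and no test was made. The 12 members at least 25% higher or 20% lower kept their direction under every alternative run on single genes, and of the other 34 members 20 kept it and 14 did not. Rescaling moved the median of all 10593 genes by at most 0.05. When only whole-number values were counted, which drops most reads of several members, the median of the 46 members was -0.22 and 17 were at least 20% lower and 6 at least 25% higher, in place of 10 and 2. The count of members at least 25% higher was 1 in place of 2 with a total without mitochondrial and top 50 genes, with TMM scaling and with cultures set by a hashtag share of 60%. The hashtag setting also took in cells named as doublets. With a pseudocount of 5 CPM, 1 member in place of 2 and 6 other pathway genes in place of 10 were at least 2-fold apart. Among members reaching 20 CPM, 0 were, because Psmb9 and Psmc3ip are below it.

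The share of Psmb8 in Psmb8 and Psmb5 in collagen was 1.14% in thinned cells, 1.17% as a mean over cells and 8.51% with whole-number values, where Matrigel was at 13.1%. The share of Psmb9 in Psmb9 and Psmb6 was 0.892% in collagen at a hashtag share of 95% and 3.42% in Matrigel as a mean over cells. The share of Psmb10 in Psmb10 and Psmb7 in collagen was 19.4% as a mean over cells, 19.4% at a hashtag share of 60% and 22.3% with whole-number values. In Matrigel it was 26.5% as a mean over cells and 32.6% with whole-number values. Apart from the whole-number settings, the cause of these moves was not tested. Psmb9 ranged from -2.18 to -0.83, Psmc3ip from -2.34 to -1.14, Psmb10 from -0.83 to -0.62 and Psmb8 from -0.59 to 0.44 on the log2 scale. Depth limits the members with few counts in collagen, which were 5 for Psmb11, 9 for Psma8, 52 for Psme2b, 84 for Psmb8, 106 for Psmb9 and 191 for Psmc3ip.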
